A study of Mus musculus with 2 samples.

Results

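The 5 genes that mouse nomenclature groups as Fc gamma receptors, Fcgr1, Fcgr2b, Fcgr3, Fcgr4 and Fcgrt, were followed in RNA sequencing of 2 bone marrow cultures. They were chosen by name, with earlier results of these data known. Looked up by their GRCm38 Ensembl IDs, all 5 of 5 were present among the 55487 IDs of the deposited count table. The first culture carried a retroviral pMYs-IG vector for EVI1+18, an aberrantly spliced form of the transcription factor EVI1, and the second the same vector for wild-type EVI1 (EVI1-WT). Both proteins were tagged with HA, so the EVI1-WT culture is a vector-expressing comparison and not an untransduced control. Lineage-negative marrow of C57BL/6 mice was transduced, sorted on GFP after 3 days, and 10000 sorted cells were grown in the methylcellulose medium M3434 for about 3 weeks before RNA was taken. Neither the age nor the number of the mice is given in the sources used here. Each culture gave 1 library, of 20981903 counts for EVI1+18 and 20480447 for EVI1-WT. No difference below therefore has a replicate check, no p-value is given, and all intervals are 95% exact intervals for counting error alone.

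Fc gamma receptors bind the constant part of IgG and tie antibody to the cells of innate immunity. The classical receptors come as activating and inhibitory members that compete for the same immune complexes. Mouse Fcgr1 (the high-affinity receptor), Fcgr3 and Fcgr4 are activating: they have no signalling motif of their own and pair with the Fc receptor gamma chain, Fcer1g, whose ITAM motif recruits the kinase Syk. Fcgr2b is the only inhibitory member and carries an ITIM motif that recruits the lipid phosphatase SHIP1, encoded by Inpp5d. Mast cells, basophils, macrophages and granulocytes carry different mixtures of these receptors. Fcgrt encodes the heavy chain of the neonatal Fc receptor, which pairs with beta-2 microglobulin, resembles MHC class I and recycles IgG inside cells rather than signalling at the surface.

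In these colonies the inhibitory receptor and the high-affinity activating receptor stood apart in opposite directions. Fcgr2b was lower in EVI1+18, Fcgr1 was higher, and the other activating receptors Fcgr3 and Fcgr4 were less than 2-fold apart. The 3 activating receptors together had 0.810 reads per Fcgr2b read in EVI1+18 (0.765 to 0.857) and 0.394 in EVI1-WT (0.376 to 0.412). The quotient of both ratios was 2.06 (1.91 to 2.21). Reads are not corrected for gene length, and Fcgr2b has the longest exons. Per kb of all annotated exons the activating receptors had 2.66 times the level of Fcgr2b in EVI1+18 and 1.33 times in EVI1-WT. Fcgrt was scarce in both libraries.

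A pair of sequence stretches bears on how these counts can be read. The first is the longest run shared by Fcgr2b and Fcgr3, shown because a read wholly inside it matches both genes. It is 129 bases long and lies inside the coding sequence of both, at bases 402 to 530 of transcript Fcgr2b-201 and 313 to 441 of Fcgr3-201 (GENCODE M21, chromosome 1).
Run shared by Fcgr2b and Fcgr3: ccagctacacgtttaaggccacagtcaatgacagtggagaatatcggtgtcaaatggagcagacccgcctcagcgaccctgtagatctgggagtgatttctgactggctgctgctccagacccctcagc
Of all 50-base words in the annotated Fcgr3 transcripts, 9.58% also occur in Fcgr2b, and 2.92% of those of Fcgr2b occur in Fcgr3. None of the words of Fcgr1, Fcgr4, Fcgrt or Fcer1g (0) occur in any other annotated transcript. For Fcgr2b 6.95% of the words occur in some other gene. Its exons also overlap those of an antisense gene, Gm38204, over 155 bases, and Gm38204 itself had 4 counts in EVI1+18 and 17 in EVI1-WT.

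The other stretch is the promoter window, shown for the receptors that stood apart and for Fcgr3. The windows run from 250 bases before to 50 after the RefSeq start on GRCm38.p6, and were found for all 5 receptors and for Fcer1g, with a second start for Fcgr3. For Fcgr2b and Fcgr3 the start used lies inside the longer span that GENCODE gives. All 3 printed genes lie on the minus strand, and each window is given 5′ to 3′ along the gene. Capitals mark matches on either strand to GAGGAA, the core bound by the myeloid factor PU.1, and to TTCNNNGAA, the interferon gamma activated site.
Fcgr1, chr3:96293920-96294219: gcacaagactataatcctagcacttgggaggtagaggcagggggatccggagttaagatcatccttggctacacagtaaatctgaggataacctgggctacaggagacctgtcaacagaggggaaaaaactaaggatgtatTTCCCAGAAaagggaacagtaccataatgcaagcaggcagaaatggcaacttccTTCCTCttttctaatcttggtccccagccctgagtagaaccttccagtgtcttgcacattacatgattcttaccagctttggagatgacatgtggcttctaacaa
Fcgr2b, chr1:170976022-170976321: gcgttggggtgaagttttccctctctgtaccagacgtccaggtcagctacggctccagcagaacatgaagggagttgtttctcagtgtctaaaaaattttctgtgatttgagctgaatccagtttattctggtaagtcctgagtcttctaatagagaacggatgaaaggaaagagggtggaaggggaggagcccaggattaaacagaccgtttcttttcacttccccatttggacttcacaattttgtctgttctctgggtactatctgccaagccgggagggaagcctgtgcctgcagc
Fcgr3, chr1:171059354-171059653: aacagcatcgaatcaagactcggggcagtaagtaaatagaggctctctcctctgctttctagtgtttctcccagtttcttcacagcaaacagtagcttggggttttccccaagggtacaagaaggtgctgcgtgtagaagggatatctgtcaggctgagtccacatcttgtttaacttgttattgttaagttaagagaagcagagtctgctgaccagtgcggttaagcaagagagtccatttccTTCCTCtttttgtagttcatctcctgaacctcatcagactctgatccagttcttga
The PU.1 core stood in the windows of the 3 activating receptors, as TTCCTC at -55 to -50 in Fcgr1, -6 to -1 in Fcgr3 and -22 to -17 in Fcgr4, counted from the start. It was not matched in the windows of Fcgr2b, Fcgrt or Fcer1g. Of 27025 promoters of the same length, 28.3% hold it. The Fcgr1 window alone held the interferon site, as TTCCCAGAA at -109 to -101, and 8.47% of all promoters hold one. Neither the GATA site AGATAA nor the EVI1 sites GACAAGATA and GAAGATGAG were matched in any of the 7 windows (0), beside 11.4%, 0.126% and 0.370% of all promoters. Among the 9545 promoters of genes that passed the expression filter given below, 27.1% hold the PU.1 core and 7.06% the interferon site. The GATA site is held by 6.65% of them, GACAAGATA by 0.0314% and GAAGATGAG by 0.314%. GACAAGATA overlaps AGATAA in its last letters, and the other motifs share no full match with one another. Matches of this kind describe the letters of a window and not the binding of a factor.

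Among the activating receptors, Fcgr1 (ENSMUSG00000015947; chromosome 3, 96282909 to 96293969, minus strand), the receptor that binds single IgG molecules, gave 208 counts in EVI1+18 and 21 in EVI1-WT. Scaled for library size with edgeR's TMM method and given as CPM, the count relative to the scaled library total, this was 9.69 in EVI1+18 and 1.05 in EVI1-WT. The level was 9.24-fold higher in EVI1+18, with an interval of 5.89 to 15.3, and 98.4% of the 13183 genes that reached 1 scaled CPM in either library had a lower log2 ratio. A gene is called here when its whole interval lies beyond 2-fold. Fcgr1 met that rule, as did 666 of 13183 genes (5.05%) in the upward direction. Of the 5 receptors 1 was called higher and 1 lower, so that 2 of 5 were called in either direction, beside 10.1% of tested genes. In a bulk culture, fewer cells of a type and less RNA per cell cannot be told apart, and this holds for every receptor below.

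Fcgr3 (ENSMUSG00000059498; chromosome 1, 171051174 to 171064935, minus strand), the low-affinity receptor for IgG complexes that mast cells and macrophages share, had 1926 counts in EVI1+18 and 2419 in EVI1-WT. This was 89.8 scaled CPM in EVI1+18 and 121 in EVI1-WT, a level 1.35-fold lower in EVI1+18 (1.27 to 1.43). The interval lay wholly below equality and wholly inside 2-fold. Fcgr4 (ENSMUSG00000059089; chromosome 1, 171018920 to 171029761, plus strand), a receptor of monocytes, macrophages and neutrophils in the mouse, had 82 counts in EVI1+18 and 97 in EVI1-WT, or 3.82 scaled CPM in EVI1+18 and 4.84 in EVI1-WT. Its level was 1.27-fold lower, and the interval of 0.935 to 1.72 took in equality. The depth at Fcgr4 does not show whether it differed. The reads of Fcgr3 per read of Fcgr4 had a quotient between libraries of 0.942 (0.690 to 1.29), so no difference between these 2 receptors in their ratios was detectable at this depth.

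The inhibitory receptor Fcgr2b (ENSMUSG00000026656; chromosome 1, 170958617 to 170976547, minus strand) gave 2737 counts in EVI1+18 and 6442 in EVI1-WT, the most of any of the 5 genes in each library. This was 128 scaled CPM in EVI1+18 and 322 in EVI1-WT, a level 2.52-fold lower in EVI1+18 (2.41 to 2.64). It met the rule in the downward direction, as did 672 of 13183 genes (5.10%), and 5.45% of tested genes had a lower log2 ratio. It was the only one of the 5 called lower. Counts per gene do not separate the splice forms of Fcgr2b, which differ in how the receptor is taken into the cell. Summed with Fcgr3, so that reads of the shared run cannot move between them, the pair had 217 scaled CPM in EVI1+18 and 442 in EVI1-WT, 2.04-fold lower (1.96 to 2.11).

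The neonatal receptor Fcgrt (ENSMUSG00000003420; chromosome 7, 45092990 to 45103851, minus strand) gave 87 counts in EVI1+18 and 36 in EVI1-WT, or 4.05 scaled CPM in EVI1+18 and 1.80 in EVI1-WT. Its ratio was 2.26, with an interval of 1.51 to 3.43 that excluded equality but not 2-fold, so it was not called. By the ratio alone it would pass 2-fold, as do 7.87% of tested genes upward, and 8.38% pass it downward. Its partner B2m had 495 scaled CPM in EVI1+18 and 587 in EVI1-WT, 1.18-fold lower (1.15 to 1.22), so the chains of this receptor did not stand apart in the same direction.

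**Figure D1:**
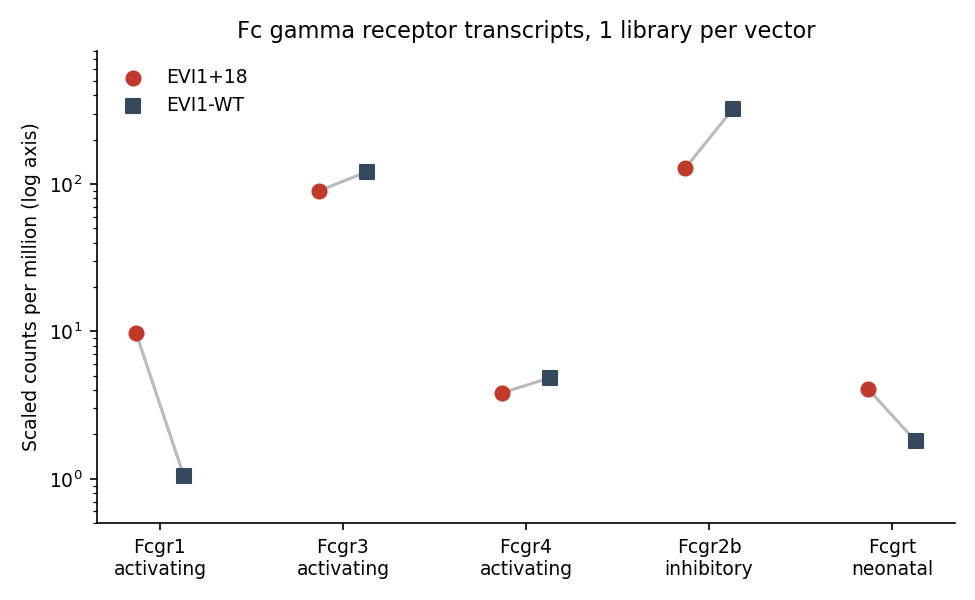
Scaled CPM (log axis) of the 5 Fc gamma receptor genes in the EVI1+18 library (circles) and the EVI1-WT library (squares), 1 library each, joined by a line per gene. Fcgr1 stood at 9.69 in EVI1+18 and 1.05 in EVI1-WT, and Fcgr2b at 128 in EVI1+18 and 322 in EVI1-WT.

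**Figure D2:**
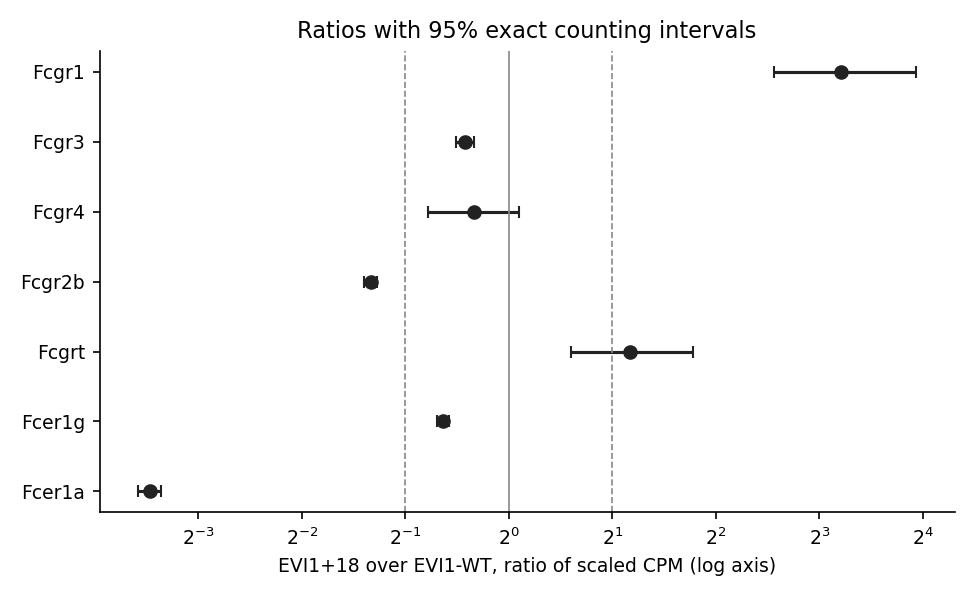
Ratio of scaled CPM, EVI1+18 over EVI1-WT (log axis), with 95% exact counting intervals as bars, for the 5 receptors, the gamma chain Fcer1g and the IgE receptor alpha chain Fcer1a; the solid line is equality and the dashed lines are 2-fold. The Fcgr1 bar lies wholly above 2-fold, the Fcgr2b and Fcer1a bars lie wholly below the lower 2-fold line, and the Fcgrt bar crosses the upper line.

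Levels can be set between genes only per length. As scaled CPM per kb of exon, EVI1+18 had 51.7 for Fcgr3, 22.03 for Fcgr2b, 3.74 for Fcgr1, 3.04 for Fcgr4 and 1.93 for Fcgrt. EVI1-WT had 69.6 for Fcgr3, 55.6 for Fcgr2b, 3.86 for Fcgr4, 0.855 for Fcgrt and 0.405 for Fcgr1. Fcgr1 ranked just after Fcgr3 and Fcgr2b in EVI1+18 and last in EVI1-WT. Its level in EVI1+18 was 1.23 times that of Fcgr4, on 208 and 82 counts, so counting error does not separate these 2 ranks. Fcgr3 and Fcgr2b were the highest in both, and their order in EVI1-WT depended on the length used. With all annotated exons Fcgr2b had 0.798 times the level of Fcgr3 there, and with the longest transcript 1.01 times. In EVI1+18 Fcgr3 was above Fcgr2b with either length. Per length, Fcgr3 was higher than 92.1% of tested genes in EVI1+18 and 94.2% in EVI1-WT, whereas Fcgrt was higher than 24.7% in EVI1+18 and 13.9% in EVI1-WT.

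The contrast of activating with inhibitory receptors was taken within each library, where the scaling cancels. Fcgr2b made up 55.3% of the reads of the 4 classical receptors in EVI1+18 (53.9 to 56.7%) and 71.7% in EVI1-WT (70.8 to 72.7%). Fcgr3 held 38.9% in EVI1+18 (37.5 to 40.3%) and 26.9% in EVI1-WT (26.0 to 27.9%), and Fcgr1 held 4.20% in EVI1+18 (3.66 to 4.80%) and 0.234% in EVI1-WT (0.145 to 0.357%). Fcgr4 was the smallest part in EVI1+18, at 1.66% (1.32 to 2.05%), and had 1.08% in EVI1-WT (0.877 to 1.32%). All 3 activating receptors thus took a larger share in EVI1+18, with intervals that did not overlap, though for Fcgr4 they nearly touched. These shares of reads favour genes with longer exons, such as Fcgr2b. Per kb of all annotated exons, Fcgr2b made up 27.4% in EVI1+18 and 42.9% in EVI1-WT. By that measure Fcgr3 was the largest part, with 64.2% in EVI1+18 and 53.8% in EVI1-WT. The activating receptors did not sum to more in EVI1+18. The 3 activating receptors summed had 103 scaled CPM in EVI1+18 and 127 in EVI1-WT, 1.23-fold lower (1.16 to 1.30), a smaller difference than that of Fcgr2b, while all 4 summed had 231 in EVI1+18 and 448 in EVI1-WT, 1.94-fold lower (1.88 to 2.01).

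Set against Fcgr2b one by one, the activating receptors gave quotients of different size, among 13 quotients computed. That of Fcgr1 over Fcgr2b was 23.3 (14.8 to 38.5), that of Fcgr4 over Fcgr2b 1.99 (1.46 to 2.71) and that of Fcgr3 over Fcgr2b 1.87 (1.74 to 2.02). Fcgr1 also stood apart from the other activating receptors, with a quotient of 12.4 over Fcgr3 (7.89 to 20.6) and 11.7 over Fcgr4 (6.68 to 21.02). The neonatal receptor lay between Fcgr2b and Fcgr1, with quotients of 5.69 for Fcgrt over Fcgr2b (3.80 to 8.66) and 4.10 for Fcgr1 over Fcgrt (2.18 to 7.81). Of the summed activating reads Fcgr3 holds the most, and the summed quotient was 1.88 without Fcgr1 (1.74 to 2.02) and 5.78 without Fcgr3 (4.63 to 7.26).

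**Figure D3:**
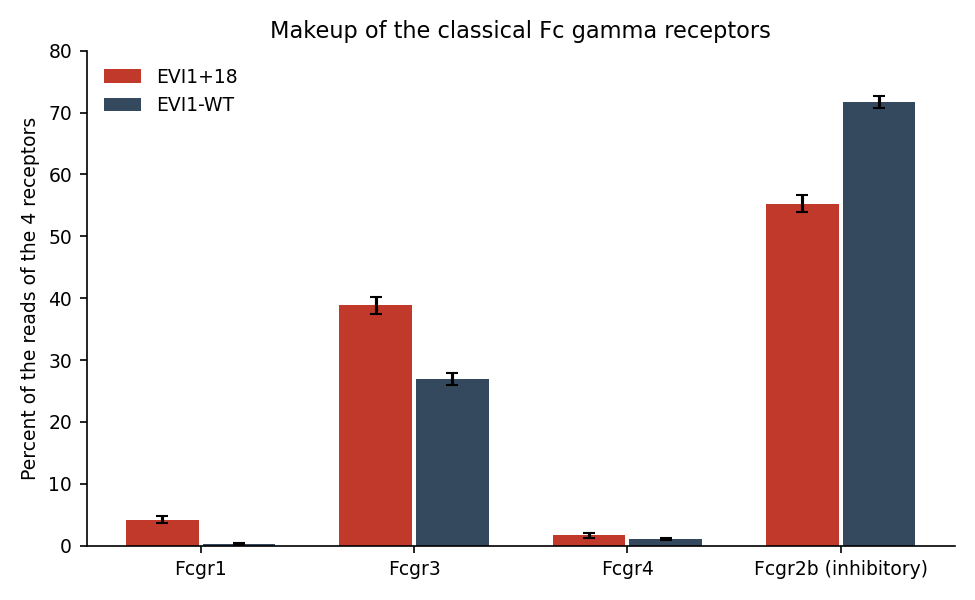
Percent of the reads of Fcgr1, Fcgr3, Fcgr4 and Fcgr2b together that each gene took in EVI1+18 (left bar of each pair) and EVI1-WT (right bar), with 95% exact binomial intervals. The inhibitory Fcgr2b took 55.3% in EVI1+18 and 71.7% in EVI1-WT. Shares are not corrected for gene length, and per kb of exon Fcgr2b made up 27.4% in EVI1+18 and 42.9% in EVI1-WT.

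The gamma chain that the activating receptors need, Fcer1g, lies on chromosome 1 too and had 3693 counts in EVI1+18 and 5360 in EVI1-WT. This was 172 scaled CPM in EVI1+18 and 268 in EVI1-WT, 1.55-fold lower in EVI1+18 (1.49 to 1.62) and not called. Per length, its level was 3.37 times that of the activating receptors summed in EVI1+18 and 4.15 times in EVI1-WT. The quotient of the read ratios was 0.789 (0.734 to 0.847). Fcer1g also serves the IgE receptor, whose alpha chain Fcer1a had 34.4 scaled CPM in EVI1+18 and 381 in EVI1-WT, 11.1-fold lower. The beta chain Ms4a2, which the IgE receptor shares with Fcgr3 in mast cells, had 47.4 in EVI1+18 and 92.2 in EVI1-WT, 1.95-fold lower (1.80 to 2.10). Fcgr3, at 1.35-fold, was thus closer to equality than Fcer1g, Fcer1a or Ms4a2. The ITAM adaptor Tyrobp had 240 scaled CPM in EVI1+18 and 453 in EVI1-WT, 1.89-fold lower and not called. Hcst, an adaptor without an ITAM that was kept in the same list, had 6.90 scaled CPM in EVI1+18 and 11.04 in EVI1-WT and was not called. The median log2 ratio of the 3 tested genes of that list was -0.67, and that of the 2 tested ITAM chains alone -0.78. Cd247, a further ITAM chain of the list, had 2 counts in EVI1+18 and 5 in EVI1-WT and was below the filter.

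Other Fc receptor genes were mostly below the filter. Of 13 such genes 3 passed 1 scaled CPM, with 0 called higher and 1 (Fcer1a) lower, beside 5.05% and 5.10% of all tested genes. The median log2 ratio of these 3 was -0.96, which is the value of Ms4a2. The genes Fcmr, Fcamr, Fcrl5 and Fcrl6 had 0 counts in both libraries, where 0 counts allows up to 0.140 scaled CPM in EVI1+18 and 0.150 in EVI1-WT. Trim21, the cytosolic receptor for antibody bound to viruses, had 12.2 scaled CPM in EVI1+18 and 11.9 in EVI1-WT, a ratio of 1.02 (0.855 to 1.22). The polymeric immunoglobulin receptor Pigr had 14 counts in EVI1+18 and 3 in EVI1-WT.

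Downstream of the activating receptors, most genes were close to equality. Of 26 tested genes of activating signalling 2 were called higher and 0 lower, beside 5.05% and 5.10% of all tested genes. Their log2 ratios had a median of 0.04, beside 0.01 over all tested genes. Syk, the kinase that docks on the ITAM, had 181 scaled CPM in EVI1+18 and 192 in EVI1-WT, 1.06-fold lower (1.01 to 1.11), and the Src-family kinase Lyn had 129 in EVI1+18 and 125 in EVI1-WT. The genes called were Grap2, an adaptor that links SLP-76 to receptors, with 336 counts in EVI1+18 and 8 in EVI1-WT (39.2-fold higher, 19.7 to 91.5), and Src, with 741 counts in EVI1+18 and 70 in EVI1-WT (9.88-fold higher, 7.73 to 12.8). Among the genes not called, the mast cell adaptor Lat2 came nearest to the downward limit, with 132 scaled CPM in EVI1+18 and 256 in EVI1-WT, and was named after its values were seen.

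On the inhibitory side, 1 of 14 tested genes was called higher and 1 lower, beside 5.05% and 5.10% of all tested genes, and the median of their log2 ratios was -0.15. Inpp5d, the SHIP1 phosphatase that Fcgr2b recruits, had 177 scaled CPM in EVI1+18 and 272 in EVI1-WT, 1.54-fold lower (1.48 to 1.61). Ptpn6, the SHP-1 phosphatase of other ITIM receptors, had 288 in EVI1+18 and 319 in EVI1-WT, 1.11-fold lower (1.07 to 1.15). The adaptor Dok1 was the gene called higher, at 54.2 scaled CPM in EVI1+18 and 23.4 in EVI1-WT (2.32-fold, 2.08 to 2.59). Pag1, a membrane adaptor that brings the inhibitory kinase Csk to Src-family kinases, was the gene called lower, at 15.2 in EVI1+18 and 57.8 in EVI1-WT (3.81-fold, 3.36 to 4.32). Of 28 tested genes of actin and engulfment, 0 were called higher and 1 lower (all genes, 5.05% and 5.10%), with a median of -0.09. The one called was the myosin Myo10, which acts in pseudopod extension, at 30.9 scaled CPM in EVI1+18 and 83.4 in EVI1-WT.

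A list of other receptors drawn up around the same gamma chain had 9 tested genes, of which 1 was called higher and 3 lower, beside 5.05% and 5.10% of all tested genes. It holds Pirb, an inhibitory ITIM receptor, and Trem3, which pairs with Tyrobp. Without these 2 genes, a choice made after the data were seen, 1 of 7 was called higher and 2 lower. The log2 ratios had their median at -0.23 with and without them, and at -0.63 over the whole list with a filter of 5 scaled CPM, which removes Clec4a1 and leaves 0 called higher. The lectin receptor Clec4a1 was higher, with 83 counts in EVI1+18 and 15 in EVI1-WT, and the lectin Clec4e (Mincle) was lower, at 50.9 scaled CPM in EVI1+18 and 196 in EVI1-WT. Of 18 tested receptors of the ITIM list, which also holds Pirb, 1 was called higher and 4 lower, beside the same shares of all genes, with a median of -0.65. In all 15 log2 ratios were below 0 and 3 above, beside 6471 below and 6712 above among the 13183 tested genes. The list includes Lilr4b, which lacks an ITIM, and without it 1 of 17 was called higher and 3 lower, with a median of -0.64. Whether each of the remaining genes carries the motif was not checked. The leukocyte immunoglobulin-like receptors Lilrb4a and Lilr4b had 81.8 and 168 scaled CPM in EVI1+18, against 275 and 502 in EVI1-WT. Milr1, an inhibitory receptor of mast cells, had 14.4 scaled CPM in EVI1+18 and 42.7 in EVI1-WT. Cd22, known from B cells, was the one called higher, with 255 counts in EVI1+18 and 15 in EVI1-WT. Pira2 and Pirb, 2.22-fold and 2.30-fold lower, and the Lilrb4 genes belong to families of near-identical copies, so their single counts are uncertain. Of 17 tested genes of neonatal receptor partners and recycling, 1 was called higher and 0 lower (all genes, 5.05% and 5.10%), with a median of -0.26. It was Ehd3, an endosomal recycling protein, at 34.5 scaled CPM in EVI1+18 and 10.4 in EVI1-WT.

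**Figure D4:**
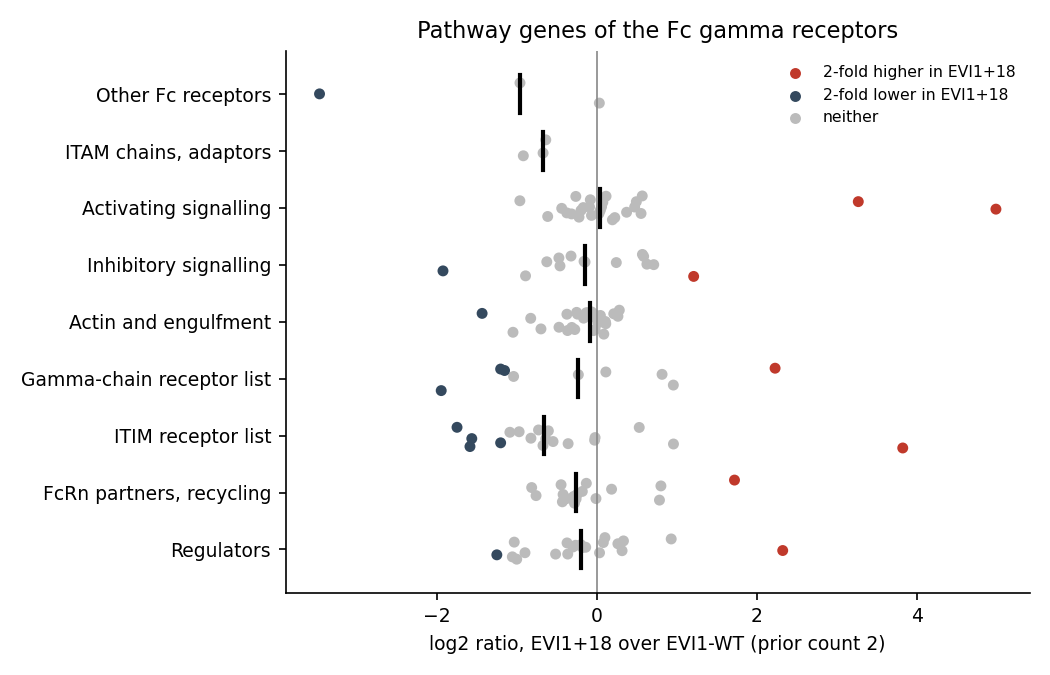
Log2 ratio, EVI1+18 over EVI1-WT, of each tested gene in 9 lists around the receptors (1 point per gene; red, called higher; dark blue, called lower; grey, neither), with a black bar at the list median. Medians run from -0.96 for the 3 tested other Fc receptor genes to 0.04 for activating signalling.

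Among 21 tested regulators of these receptors, 1 was called higher and 1 lower (all genes, 5.05% and 5.10%; median -0.20 on the log2 scale). Irf8, an interferon-responsive factor of monocytes, was the one higher, with 223 counts in EVI1+18 and 40 in EVI1-WT (5.20-fold, 3.70 to 7.48). The TGF-beta receptor Tgfbr1 was the one lower, at 42.7 scaled CPM in EVI1+18 and 102 in EVI1-WT. Spi1, which encodes PU.1, had 170 scaled CPM in EVI1+18 and 204 in EVI1-WT, 1.20-fold lower (1.15 to 1.26).

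The genes Fcgr2b, Fcgr4 and Fcgr3 lie within 106.3 kb of chromosome 1, and Fcer1g lies 164.6 kb beyond Fcgr3. Of 35 annotated genes within 250 kb of the 3 receptors, 16 were tested, of which 0 were called higher and 2 lower, beside 5.05% and 5.10% of all tested genes. Besides Fcgr2b the other was Gm10522, a long intergenic non-coding RNA that starts 5.40 kb from the 5′ end of Fcgr2b (chromosome 1, 170981944 to 170986466). It had 1 count in EVI1+18 and 51 in EVI1-WT, a ratio of 0.0183 with an interval of 0.000455 to 0.107. The 11 tested protein-coding neighbours that are no Fc receptor gene had log2 ratios of -0.56 to 0.42. On the far side of Fcgr2b, the Fc receptor-like genes Fcrla and Fcrlb were below the filter, with 0 and 3 counts in EVI1+18, against 7 and 13 in EVI1-WT.

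**Figure D5:**
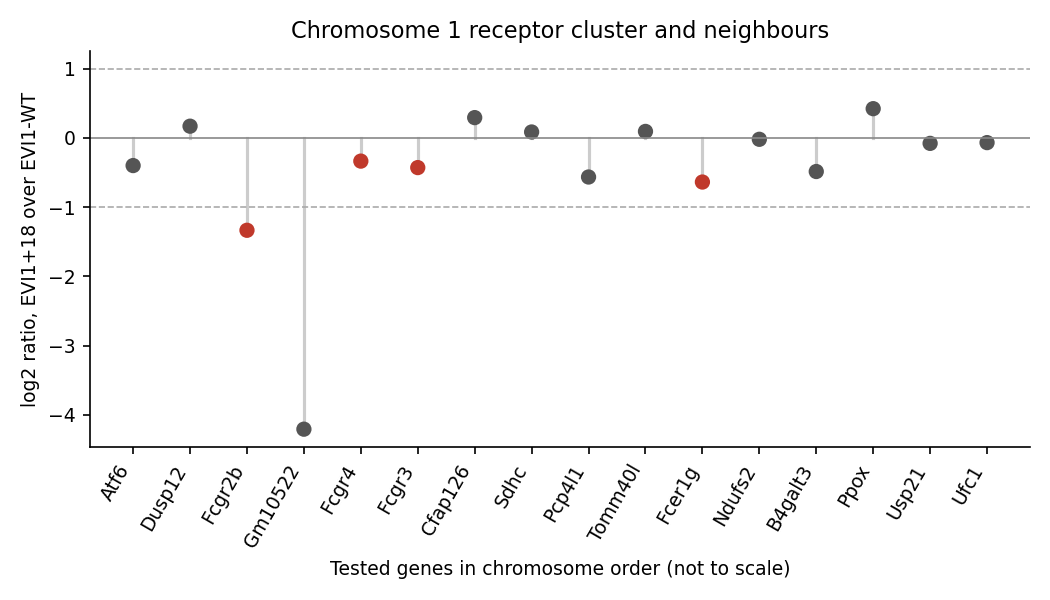
Log2 ratio, EVI1+18 over EVI1-WT, of the 16 tested genes in and around the receptor cluster, in chromosome order (Fc receptor genes in red, dashed lines at 2-fold). Fcgr2b and the non-coding Gm10522 lie below the lower line, and the 14 others lie between the lines.

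Markers of several blood lineages also differed between the 2 libraries. Of all tested genes 5.05% were called higher and 5.10% lower, and these shares stand beside each marker count below. Of 13 tested mast cell and basophil markers 7 were called lower and 2 higher. The 16 genes summed to 1263 scaled CPM in EVI1+18 and 6030 in EVI1-WT, with Tpsab1 and Mrgprb2 at 0 counts in both. Cpa3 and Hdc had 196 and 71.2 scaled CPM in EVI1+18, against 2409 and 1178 in EVI1-WT, the largest parts of the EVI1-WT sum. The 2 called higher were Kit, with 254 counts in EVI1+18 and 63 in EVI1-WT, and Prss34, with 159 in EVI1+18 and 32 in EVI1-WT. Of 11 tested macrophage and monocyte markers 4 were called higher and 2 lower, with 4100 scaled CPM over 18 genes in EVI1+18 and 2255 in EVI1-WT. Lyz2 and Gpnmb, at 2397 and 1214 scaled CPM in EVI1+18, against 967 and 242 in EVI1-WT, carried that sum. The other 16 genes summed to 489 in EVI1+18 and 1046 in EVI1-WT, the opposite direction. Of the 9 tested among them 2 were called higher and 2 lower. Lower were Adgre1, at 94.4 in EVI1+18 and 246 in EVI1-WT, and Ly6c2, at 101 in EVI1+18 and 463 in EVI1-WT. These 2 made most of the difference in the sum. Higher were Mertk, with 90 counts in EVI1+18 and 8 in EVI1-WT, and Marco, with 23 in EVI1+18 and 1 in EVI1-WT. Cd68, at 193 scaled CPM in EVI1+18 and 241 in EVI1-WT, and Csf1r, at 51.5 in EVI1+18 and 27.0 in EVI1-WT, were not called. The tissue macrophage markers C1qa, Vsig4 and Cd5l had 0 counts in both libraries. Neutrophil markers summed to 1340.5 scaled CPM in EVI1+18 and 4533 in EVI1-WT (7 of 12 called lower, 0 higher), eosinophil markers to 176 in EVI1+18 and 866 in EVI1-WT (5 of 6 lower, 1 higher) and dendritic cell markers to 57.4 in EVI1+18 and 29.2 in EVI1-WT (3 of 5 higher, 0 lower). Erythroid markers summed to 13403 in EVI1+18 and 1749.7 in EVI1-WT (10 of 11 higher, 0 lower), and platelet markers to 1389 in EVI1+18 and 564 in EVI1-WT (6 of 8 higher, 0 lower). The B cell markers Pax5, Ms4a1 and Ebf1, the NK cell markers Ncr1, Klrk1 and Prf1 and the T cell markers Cd4 and Cd8a were at 0 counts in both libraries. The 10 B cell markers summed to 14.5 scaled CPM in EVI1+18 and 4.39 in EVI1-WT (1 of 2 tested higher). The gene called was Cd22, already given among the ITIM receptors, and without it the sum was 2.66 in EVI1+18 and 3.65 in EVI1-WT. The 8 T cell markers summed to 18.3 in EVI1+18 and 19.4 in EVI1-WT (1 of 3 lower). The 9 NK cell markers summed to 1525 in EVI1+18 and 7821 in EVI1-WT (2 of 3 lower), of which Gzmb, a granzyme that mast cells also make, gave 1520 in EVI1+18 and 7811 in EVI1-WT. Endothelial and stromal markers summed to 1.21 scaled CPM in EVI1+18 and 4.74 in EVI1-WT. The part of these lineages in the receptor differences was not tested.

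With 2 libraries the pattern of a gene is its level and 1 ratio, and the genes nearest to each receptor in both were looked up as a description. Nearest to Fcgr1 were Ifi203, Gsta3 and Il6st, with log2 ratios of 2.97, 3.25 and 3.25 beside 3.10 for Fcgr1. Nearest to Fcgr2b were Rnf128, Anxa11 and Il18rap, with -1.26, -1.42 and -1.30 beside -1.33. Among those nearest to Fcgr3 were BC037034 and Chd1, among those nearest to Fcgr4 Zbtb20 and Pex11g, and nearest to Fcgrt were Acp5, Stfa3 and BC025920. Within a distance of 0.25 log2 units lay 5 genes for Fcgr1 and 5 for Fcgr2b, but 154 for Fcgr3.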

How the data were processed

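RNA was measured in 2 libraries, and the authors deposited read counts per Ensembl gene without normalization, 1 column per library. Each column was assigned by its name and each group by the vector in the labels, and 0 columns were left unmapped. The submitters' processing notes name GRCm38 and, as tools, edgeR, featureCounts, HISAT2 2.2.1, SAMtools and Subread. Not given in the sources used here were strandedness, annotation version and the treatment of multi-mapped reads, which bears on the run shared by Fcgr2b and Fcgr3. Symbols, exon lengths and coordinates came from GENCODE M21, which matched 55227 IDs, and promoter sequences from RefSeq on GRCm38.p6.

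At these totals, 3 counts, the limit that 0 counts allows, are worth 0.140 scaled CPM in EVI1+18 and 0.150 in EVI1-WT. Reads carry no molecular identifiers, so intervals cover counting error only. Counts were scaled by TMM (edgeR 4.0.16, R 4.3.3). Ratios have 95% Clopper-Pearson intervals and quotients exact conditional intervals (scipy 1.17.1). Genes that reached 1 scaled CPM in either library were tested, and a gene was called when its whole interval lay past 2-fold. Log2 ratios used a prior count of 2. With 1 library a group leaves no residual degrees of freedom, and no replicate test was run. The scaling was also done with DESeq2 1.42.0 size factors, upper quartiles and totals.

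The 5 receptors and all gene lists were chosen with earlier results of these data known. Named from each list were the 3 called genes with the largest interval bound nearest to equality in each direction, a fixed set of partner genes, the neighbours within 250 kb and the 3 nearest patterns. Pira6 of the lists and Ahsp of the markers were not matched. Not all genes that the rule takes are given in the text, and a few of them are not reported here.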

Additional observations from a re-analysis of the deposited data

How the results depend on the processing

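No paired analysis was possible because each group has 1 library, and for the same reason no library could be left out. The 5 receptor ratios kept their direction and their side of the 2-fold rule under DESeq2 size factors, upper quartiles and total counts, which moved all genes by at most 0.06 on the log2 scale. The activating over inhibitory quotient was 1.88 without Fcgr1, 5.78 without Fcgr3 and 2.06 without Fcgr4, and 1.998 with reads per kb. It had to stay above 1, because each activating receptor alone had a quotient over Fcgr2b above 1, so only its size is informative.

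Over all genes, a filter at 5 scaled CPM left 431 genes called higher, which follows from fewer genes tested. Calling by the ratio itself gave 1037 higher and 1105 lower, with Fcgrt among the higher. Taking the longest transcript as length turned the order of Fcgr2b and Fcgr3 in EVI1-WT (1.01 for Fcgr2b over Fcgr3, instead of 0.798) but not in EVI1+18 (0.540, instead of 0.426). Under the filter at 5 scaled CPM and under DESeq2 size factors the list medians kept their sign. Depth limits Fcgr4, Fcgrt and Fcgr1, which had under 100 counts in at least 1 library.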
